A study of Homo sapiens with 12 samples.

Results

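The response of wild-type HepaRG cells to phenobarbital was measured as the difference in transcript levels between 2 libraries of phenobarbital-treated cells and 2 libraries of solvent-treated cells. These 4 libraries are part of a series of 12, and 15792 of 15822 loci of the expression table, those with at least 1 CPM in at least 2 of the 12 libraries, were tested. HepaRG is a human hepatoma line whose cultures contain hepatocyte-like and biliary-like cells. The cells were labelled WT and received either the solvent DMSO or phenobarbital (PB). The other groups used here for comparison were WT cells given CITCO, a synthetic agonist of the constitutive androstane receptor, and cells labelled hCAR-KO, in which the human constitutive androstane receptor was knocked out, given DMSO or PB. Each group held 2 libraries. Nothing in the labels states a dose, an exposure time, where the knockout edit lies or whether the knockout cells were 1 clone. Nor do they name separate cultures for the duplicates, and a p-value here reflects library-to-library spread, part or all of which may be technical. CPM below are the deposited values, reads scaled to a normalized library size.

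Phenobarbital is the classical inducer of drug metabolism in liver. In textbook accounts it acts through nuclear receptors: it releases the constitutive androstane receptor (CAR, gene NR1I3) from the cytoplasm by an indirect route that involves the EGF receptor, and at higher concentrations it also binds the pregnane X receptor (PXR, gene NR1I2). Both receptors pair with a retinoid X receptor and bind paired hexamers near their target genes, the best studied being CYP2B6 and CYP3A4. The targets encode cytochrome P450 monooxygenases, the conjugating enzymes of phase II and the transporters that move drugs and bile acids across the hepatocyte membrane. In rodents the drug is also known for liver growth and for lowering gluconeogenesis.

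The CYP3A promoters are shown first because their 4 genes all rose and because the paired hexamer that both receptors can bind, an everted repeat with 6 bases between the hexamers (ER6), was found in 2 of them. The sequences are RefSeq's on GRCh38.p14, 5′ to 3′, the 250 bases before each annotated start, with exact ER6 matches in capitals. The motif was searched on both strands in its exact forms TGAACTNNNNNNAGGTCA, TGACCTNNNNNNAGGTCA, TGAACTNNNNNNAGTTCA and TGACCTNNNNNNAGTTCA.
CYP3A4, chr7:99784185-99784434, minus strand: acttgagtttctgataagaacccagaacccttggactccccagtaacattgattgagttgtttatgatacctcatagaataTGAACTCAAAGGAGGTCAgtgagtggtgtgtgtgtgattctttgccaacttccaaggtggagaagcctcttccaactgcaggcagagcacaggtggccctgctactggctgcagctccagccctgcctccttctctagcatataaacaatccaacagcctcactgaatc
CYP3A5, chr7:99679997-99680246, minus strand: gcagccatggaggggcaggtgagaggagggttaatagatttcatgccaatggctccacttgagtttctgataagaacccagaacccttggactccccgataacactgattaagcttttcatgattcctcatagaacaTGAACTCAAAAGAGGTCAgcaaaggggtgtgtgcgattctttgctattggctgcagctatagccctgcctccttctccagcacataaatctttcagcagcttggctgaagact
CYP3A7, chr7:99735197-99735446, minus strand: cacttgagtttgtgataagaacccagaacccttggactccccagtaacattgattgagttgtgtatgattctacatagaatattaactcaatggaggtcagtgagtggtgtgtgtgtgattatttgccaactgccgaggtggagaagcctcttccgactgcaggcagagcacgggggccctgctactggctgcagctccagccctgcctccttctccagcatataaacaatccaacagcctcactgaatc
An exact match stood 169 to 152 bases before the start of CYP3A4 and 113 to 96 bases before that of CYP3A5. Of 35116 RefSeq promoters of 300 bases, 250 before and 50 after the start, 7 held an exact ER6 (0.0199%). RefSeq promoters were matched by symbol for 9951 of the 15741 tested symbols, and 2 of these 9951 held the motif, CYP3A4 and CYP3A5. The 18-base stretches aligned as follows, with the hexamer bases shared with CYP3A4 in capitals.
CYP3A4: TGAACTcaaaggAGGTCA
CYP3A5: TGAACTcaaaagAGGTCA
CYP3A7: TtAACTcaatggAGGTCA
CYP3A43: gGAAaTcaaaggAGGcCA
Counted from 1 at the 5′ end of the CYP3A4 stretch, CYP3A5 differed by G11A, between the hexamers. CYP3A7 differed by G2T, in the first hexamer, and by A10T, between the hexamers. CYP3A43 differed at 3 bases, all in the hexamers. A match describes letters in this window and says nothing of binding. Beside the sequences, CYP3A4, with an exact match, rose by 4.05 on the log2 scale, CYP3A5, also with an exact match, rose by 0.72, and CYP3A7 and CYP3A43, without one, rose by 2.1 and 1.65.

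Phenobarbital changed many loci by small amounts and few by much. Of 15792 loci, 1014 were called at an adjusted p under 0.05 (6.42%), 420 higher (2.66%) and 594 lower (3.76%), and 2992 had an unadjusted p under 0.05 (limma). Scaling every library to its total gave 367 higher and 727 lower. The median change was 0.34 on the log2 scale among the loci called higher and -0.31 among those called lower. Of the 420, 26 rose at least 2-fold and 86 at least 1.5-fold. Of the 594, 6 fell at least 2-fold and 86 at least 1.5-fold. The 26 loci with at least a 2-fold rise took 0.151% and 0.147% of the signal with DMSO and 0.692% and 0.67% with PB. The share of loci called rose with level, from 2.51% of loci under 5 CPM to 37.4% of those at 500 CPM or more, as the median SE of a change fell from 0.17 to 0.0346. The PB and DMSO groups had values that did not overlap at 41.5% of loci, so separation of duplicates alone is common here. When only these 4 libraries were fitted, 242 loci were called, 129 higher and 113 lower. Of 177 named genes that were called, 96 were called under every alternative setting. In the Results, named genes that lost their call in the fit of the 4 libraries alone, or without 1 library, are given with an adjusted p of such a fit. The closing section on differences between the genotypes does not give these losses gene by gene.

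**Figure D1:**
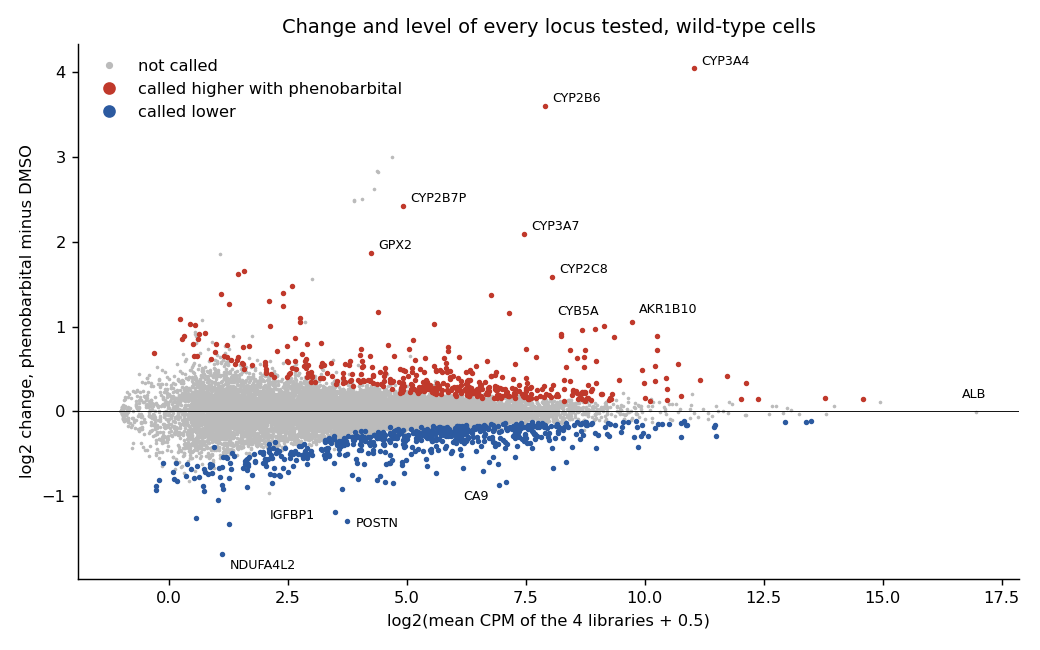
Change of each locus with phenobarbital (y axis, log2) against its mean level in the 4 wild-type libraries (x axis, log2 of CPM + 0.5), with called loci in red (higher) and blue (lower). CYP3A4, at 4.05, and CYP2B6, at 3.60, stand apart from all other called loci, while most called loci lie close to 0. The grey points above 1 are 11 loci that were not called.

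The whole reads recovered from the table came to 49258123 to 66453415 in the 4 libraries. ALB, the albumin gene, made up 11.1 to 11.8% of each library and was 129931 and 125205 CPM with DMSO and 130121 and 122919 CPM with PB, a change of -0.01 on the log2 scale with overlapping groups, or of -0.05 to 0.03 when 1 library was left out. All 46 tested plasma protein genes and all 19 tested hepatocyte transcription factor genes had at least 1 CPM in all 4 libraries. Of 12 biliary and progenitor markers tested, of 21 listed, 10 did. The summed level of the list was 642 and 684 CPM with DMSO and 599.7 and 637 CPM with PB. Mesenchymal and matrix genes summed to 9313 and 8916 CPM with DMSO and 8801 and 8711 CPM with PB. Of 8 listed endothelial markers 3 were tested and 1 had at least 1 CPM in all 4 libraries. They summed to 115 and 106 CPM with DMSO and 83.1 and 82.2 CPM with PB, nearly all of it KDR, a VEGF receptor, which fell (log2 -0.41). TEK, the angiopoietin receptor, fell by 0.76 from about 1 CPM and was not called in the fit of the 4 libraries alone (adjusted p = 0.0895) or without WT DMSO 2 (0.0663) or WT PB 2 (0.0999). Of 12 listed macrophage and blood markers 1 was tested, CD14, which rose by 0.86 on the log2 scale. In bulk RNA, fewer cells of a type and less RNA per cell cannot be told apart.

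The receptors that sense the drug moved little. NR1I3, which encodes CAR, was at 11.5 and 12 CPM with DMSO and 14.8 and 15.5 CPM with PB (log2 0.36, SE 0.0874, adjusted p = 0.0181). The duplicates did not overlap, but the call was lost in the fit of the 4 libraries alone (adjusted p = 0.168) and without WT DMSO 1 (adjusted p = 0.0946) or WT PB 2 (0.105). NR1I2, which encodes PXR, stayed between 30 and 31.6 CPM in the 4 libraries (log2 0.04, adjusted p = 0.804). The partner RXRA was at 129 and 139 CPM with DMSO and 116 and 128 CPM with PB (log2 -0.14, adjusted p = 0.195). Of 31 tested pathway genes, from receptors and cytoplasmic partners to coactivators, 3 rose and 2 fell, against 2.66% and 3.76% of all loci. Their median change was 0.02 against -0.005 over all loci. That median was below 0 with total scaling, without WT PB 1 or without WT DMSO 2. In the fit of the 4 libraries alone 1 rose and none fell. Without WT PB 1 or WT PB 2, 2 rose and none fell. Without WT DMSO 1, 2 rose and 1 fell. PPARA, the receptor for fatty acids, was the pathway gene with a call that held in every alternative, at 69.7 and 65.6 CPM with DMSO and 85 and 86 CPM with PB (log2 0.34).

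The P450 enzymes of drug metabolism carried the largest rises. CYP3A4, the main drug-oxidising P450 of adult liver, was at 242 and 232 CPM with DMSO and 4029.7 and 3826 CPM with PB, a 16.6-fold rise (log2 4.05, SE 0.0347, adjusted p = 1.59e-22). CYP2B6, a drug oxidase much used to read CAR activity, was at 35.2 and 37.1 CPM with DMSO and 442 and 447 CPM with PB, a 12.3-fold rise (log2 3.60, SE 0.0581, adjusted p = 4.75e-18). For both genes the 2 PB libraries lay far above the DMSO libraries, with duplicates close together. The share of all signal taken by CYP3A4 went from 0.022% and 0.0212% to 0.362% and 0.346%. The 27 tested P450 genes of families 1 to 4 summed to 2498 and 2458 CPM with DMSO and 7690.1 and 7429.6 CPM with PB. Of these 27, 12 rose and 5 fell, against 2.66% and 3.76% of all loci.

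All tested members of subfamilies CYP3A (4 genes), CYP2A and CYP2B (4 loci) and CYP2C (3 genes) rose. CYP3A7, the fetal form, was at 67.7 and 66 CPM with DMSO and 298 and 277 CPM with PB (log2 2.1, SE 0.0776). CYP3A5, which oxidises many CYP3A4 substrates, was at 329 and 319.6 CPM with DMSO and 542 and 529 CPM with PB, the smallest rise of the 4 (log2 0.72, SE 0.043). CYP3A43 was near the limit of the filter with DMSO, at 0.937 and 0.944 CPM, and at 3.87 and 4.2 CPM with PB (log2 1.65, SE 0.168). With DMSO, CYP3A5 had the highest CPM of the 4, and with PB it was CYP3A4, a difference in reads per gene that is not corrected for gene length.

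CYP2C8, which oxidises paclitaxel, was at 137 and 128 CPM with DMSO and 415 and 383 CPM with PB (log2 1.59, SE 0.048). CYP2C18 rose from 88.8 and 86 CPM to 200.2 and 191 CPM (log2 1.16, SE 0.0421). In the CYP2 cluster, CYP2A6, the nicotine oxidase, was at 59.1 and 61.8 CPM with DMSO and 151 and 163 CPM with PB (log2 1.37). CYP2B7P, a pseudogene next to CYP2B6, rose by 2.42 and CYP2A13 by 1.24 on the log2 scale. CYP2B6 and CYP2B7P, and CYP2A6 and CYP2A13, are close copies, and how reads were divided between copies is not stated, so the changes of the weaker copy are uncertain. The same holds within the CYP3A family and for the copies of AKR1B10, AKR1C2, GSTA1 and CYP4A11. All these P450 calls held under every alternative setting.

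Of the P450 genes that fell, CYP2E1, which oxidises ethanol, was at 133 and 132 CPM with DMSO and 92.6 and 89.7 CPM with PB (log2 -0.54, SE 0.0744, adjusted p = 0.000115). CYP4A11, a fatty acid omega-hydroxylase, was at 119 and 121 CPM with DMSO and 74.7 and 72.3 CPM with PB (log2 -0.70). Its close copy CYP4A22 fell by 0.64 and CYP4B1 fell by 0.30. Of 9 CYP4 genes tested, 4 fell and 1 rose. The dioxin-inducible CYP1A1 was at 1.58 and 0.944 CPM with DMSO and 2.48 and 2.11 CPM with PB (log2 0.68, SE 0.221, adjusted p = 0.0807), which is not a call. CYP1A1 was called with a pseudocount of 2 in limma (adjusted p = 0.0486) and with DESeq2 (0.0188), but not with edgeR (0.0506). Its log2 estimate ran from 0.42 to 0.95 when 1 library was left out. CYP7A1, the rate-limiting enzyme of bile acid synthesis, was at 78.5 and 68.8 CPM with DMSO and 92.8 and 86 CPM with PB (log2 0.28, adjusted p = 0.0163), a call lost in the fit of the 4 libraries alone (adjusted p = 0.162), without WT PB 1 (0.117) and without WT DMSO 2 (0.145).

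**Figure D2:**
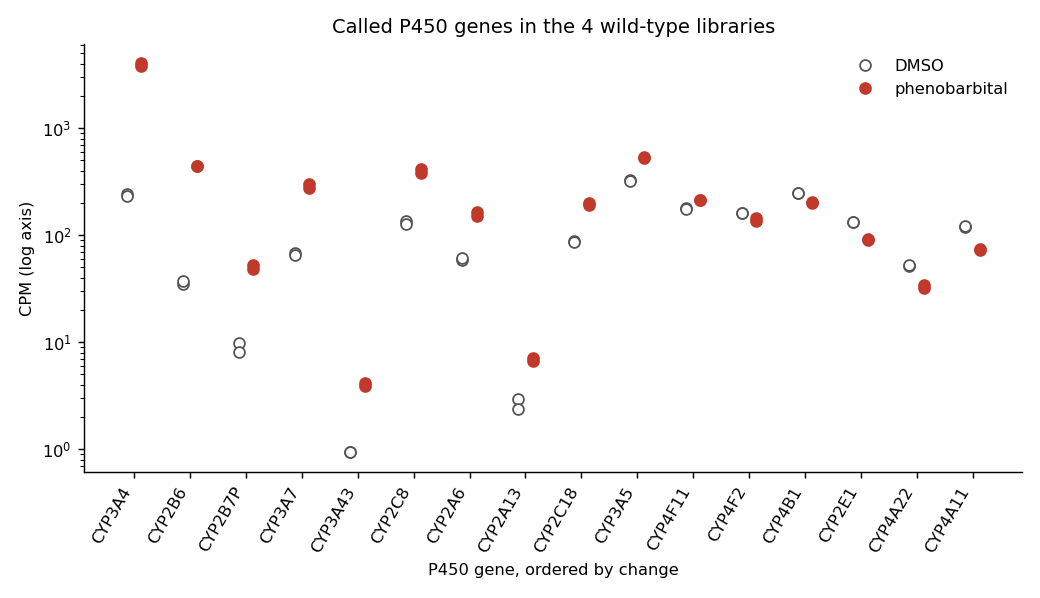
CPM of called P450 genes of families 1 to 4 (y axis, log scale) in the 2 DMSO libraries (open) and the 2 phenobarbital libraries (filled), ordered by change. The genes on the left rose, from CYP3A4 at 242 and 232 CPM to 4029.7 and 3826 CPM down to CYP4F11, and the 5 on the right fell, CYP4A11 most.

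Genes beside these P450 clusters were read in the same libraries, at coordinates on RefSeq's GRCh38.p14. Around the CYP3A cluster on chromosome 7, FAM200A, ZNF655, ZSCAN25 and OR2AE1 were not called, with changes of -0.12 to 0.05, and AZGP1 rose by 0.23. Around the CYP2A and CYP2B genes on chromosome 19, ITPKC, SNRPA, MIA-RAB4B and HNRNPUL1 were not called, with changes of -0.18 to 0.09. AXL, a receptor tyrosine kinase in the same stretch, was at 34.4 and 36.8 CPM with DMSO and 23.6 and 22.9 CPM with PB and so fell (log2 -0.60). In the CYP2C cluster on chromosome 10, NOC3L, TBC1D12 and HELLS were not called, and PDLIM1 fell by 0.17.

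Partners of the P450 enzymes rose selectively. POR, the reductase that passes electrons from NADPH to microsomal P450, was at 202 and 215 CPM with DMSO and 377 and 411 CPM with PB (log2 0.92, SE 0.046, adjusted p = 1.79e-10). CYB5A, the cytochrome b5 that can supply the second electron, was at 383 and 369.7 CPM with DMSO and 768 and 747 CPM with PB (log2 1.01, SE 0.0346, adjusted p = 6.41e-13). For both genes the PB libraries lay above both DMSO libraries, with no overlap. Of 8 electron supply genes, these 2 rose and 1 fell, against 2.66% and 3.76% of all loci. CYB5R3, which reduces cytochrome b5 from NADH, fell by 0.20. The CYB5R3 call was lost in the fit of the 4 libraries alone (adjusted p = 0.208), without WT PB 1 (0.132) and without WT DMSO 2 (0.123). ALAS1, the rate-limiting enzyme of heme synthesis, rose from 69.3 and 69.6 CPM to 96.5 and 94.2 CPM (log2 0.45, adjusted p = 1.56e-05). Of 11 genes of heme synthesis and breakdown 4 rose and none fell, but 1, ALAS1, was called in the fit of the 4 libraries alone, and 2 without WT PB 2. For NADPH, PGD of the pentose phosphate pathway rose from 155 and 157 CPM to 203 and 205 CPM (log2 0.39) and the dehydrogenase IDH1 from 461 and 429 CPM to 572 and 545 CPM (log2 0.33). These were 2 of 4 NADPH genes called among 8, and the other two, TKT and TALDO1, were not called in the fit of the 4 libraries alone (adjusted p = 0.0983 and 0.103).

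Some conjugating enzymes rose. In glucuronidation, UGDH, which makes the UDP-glucuronate donor, was at 349 and 343 CPM with DMSO and 512 and 483 CPM with PB (log2 0.52). UGT1A1, the bilirubin transferase, was at 834 and 807 CPM with DMSO and 1174 and 1128 CPM with PB (log2 0.49, SE 0.033). The UGT1A transferases share exons, so this locus may hold reads of several. UGT2B4, which acts on bile acids, rose from 483 and 444 CPM to 885 and 820.3 CPM (log2 0.88, SE 0.0418), and UGT2B17 of the same cluster rose by 0.25 (adjusted p = 0.106 in the fit of the 4 libraries alone). UGT2B28, UGT2B10 and UGT2B11, with estimates of 0.77, 0.23 and 0.16, and UGT2A3 and UGT2B7, with -0.04 and -0.20, were not called. Of 11 glucuronidation genes 4 rose and none fell, but 2 fell without WT PB 1 or without WT DMSO 2, and 1 fell with DESeq2 or total scaling. Over all loci 2.66% rose and 3.76% fell. In the fit of the 4 libraries alone 3 glucuronidation genes rose and none fell. The pseudogene SULT1D1P, some way along the same stretch of chromosome 4, went the other way, from 26.5 and 27.3 CPM to 15.9 and 15.2 CPM (log2 -0.77).

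Of 30 genes of sulfation, glutathione conjugation and hydrolysis, 10 rose and 1 fell, against 2.66% and 3.76% of all loci. EPHX1, the microsomal epoxide hydrolase, was at 930.2 and 921 CPM with DMSO and 1519 and 1544 CPM with PB (log2 0.73, SE 0.033). SULT2A1, which sulfates bile acids and steroids, rose from 306 and 291 CPM to 466 and 456 CPM (log2 0.63). The glutathione transferases GSTA1 and GSTA2, close copies, rose by 0.39 and 0.52. NNMT, a methyltransferase of nicotinamide, was the member that fell (log2 -0.26). A list of 20 loci reported as human CAR or phenobarbital targets, which overlaps the lists above, had 11 that rose and 2 that fell. It was meant for targets outside the P450 enzymes, but its largest rise was that of the P450 pseudogene CYP2B7P (log2 2.42). Among its members, FBXW10 was at 2.77 and 2.58 CPM with DMSO and 8.23 and 8.39 CPM with PB (log2 1.47, SE 0.151). THRSP, a lipogenic target of CAR in human hepatocytes, was at 8.36 and 9.9 CPM and 10.7 and 11.5 CPM (log2 0.27, adjusted p = 0.162), which is not a call.

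Enzymes acting on aldehydes and ketones rose in 15 of 40 cases and fell in 2, against 2.66% and 3.76% of all loci. Of 10 aldo-keto reductases 6 rose, and all 10 estimates were above 0. AKR1B10 was at 563 and 545 CPM with DMSO and 1167 and 1127 CPM with PB (log2 1.05, SE 0.0336, adjusted p = 3.65e-13). AKR1C2, which reduces steroids, was at 874 and 844 CPM with DMSO and 1611 and 1573 CPM with PB (log2 0.89). AKR1D1, the 5-beta-reductase of bile acid and steroid metabolism, rose from 13.4 and 11.7 CPM to 29.4 and 28.3 CPM (log2 1.17, SE 0.0794). AKR1B15, a close copy of AKR1B10, rose by 1.30 but its PB libraries were unequal, at 4.14 and 7.23 CPM. Alcohol dehydrogenase ADH1A went from 203 and 199.5 CPM to 165 and 157 CPM (log2 -0.32) and is 1 of the 2 that fell, the other being ADH1B (log2 -0.16, adjusted p = 0.124 in the fit of the 4 libraries alone).

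Genes induced by NRF2, the sensor of oxidative and electrophilic stress, rose in 9 of 15 cases, and 1 fell (all loci, 2.66% and 3.76%). In the fit of the 4 libraries alone 6 rose and none fell, and the fall, of ABCC3, was also lost without WT PB 1, WT DMSO 1 or WT DMSO 2. GPX2, a glutathione peroxidase, was at 7.36 and 7.95 CPM with DMSO and 28.5 and 30.1 CPM with PB, a 3.83-fold rise (log2 1.87, SE 0.0629, adjusted p = 6.41e-13) and the largest of the list. The cystine carrier SLC7A11 went from 6.6 and 5.83 CPM to 11.9 and 10.6 CPM (log2 0.81), PIR, an iron-binding nuclear protein, from 25.9 and 23.2 CPM to 41.4 and 40.6 CPM (log2 0.73), and SRXN1, the sulfiredoxin, from 54.3 and 51.8 CPM to 83.2 and 82.1 CPM (log2 0.64). FTL, the ferritin light chain, went from 2849.7 and 2978 CPM to 3819 and 3983 CPM (log2 0.42). NQO1, often used as the marker of this response, was barely detected, at 0.112 to 0.524 CPM in the 4 libraries. The heme oxygenase HMOX1 was called (log2 0.32, adjusted p = 0.0162) but not in the fit of the 4 libraries alone (adjusted p = 0.195), without WT PB 2 (0.165) or without WT DMSO 2 (0.0833). The promoter of GPX2 is shown because it held the core of the antioxidant response element, TGACNNNGC on either strand, 122 to 114 bases before the start.
GPX2, GRCh38.p14 chr14:64942746-64942995, minus strand: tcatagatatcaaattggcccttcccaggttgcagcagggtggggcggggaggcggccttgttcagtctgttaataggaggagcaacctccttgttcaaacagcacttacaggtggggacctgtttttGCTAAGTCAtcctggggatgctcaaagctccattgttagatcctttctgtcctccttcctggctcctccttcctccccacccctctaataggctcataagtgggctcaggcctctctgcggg
That core, in capitals, stood in 13.3% of all 35116 RefSeq promoters of 300 bases.

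Of 9 exporters of the canalicular membrane, through which hepatocytes secrete bile, 6 rose and none fell. ABCC2, which exports conjugates, was at 344 and 325 CPM with DMSO and 674 and 636 CPM with PB (log2 0.97, SE 0.0404, adjusted p = 9.94e-12). ABCB1, the P-glycoprotein, was at 138 and 136 CPM with DMSO and 237 and 217 CPM with PB (log2 0.73, SE 0.0446). Of 8 basolateral exporters 1 rose and 2 fell. SLC51B, a subunit of the bile acid exporter, rose from 1.16 and 0.692 CPM to 3.34 and 2.48 CPM (log2 1.27, SE 0.203). ABCC3 and ABCC6 fell by 0.15 and 0.18, and neither was called in the fit of the 4 libraries alone (adjusted p = 0.207 and 0.229). Of 12 uptake carriers 5 rose and 1 fell. Among them, SLC5A12, a lactate carrier, was at 0.848 and 0.839 CPM with DMSO and 3.4 and 3.88 CPM with PB (log2 1.62), and SLC16A9, a carnitine carrier, at 5.15 and 4.8 CPM and 9.7 and 8.39 CPM (log2 0.80). Both have low levels in all 4 libraries. Over all 29 transporters 12 rose and 3 fell, against 2.66% and 3.76% of all loci. In the fit of the 4 libraries alone 7 transporters rose and none fell.

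Bile acid and amino acid metabolism moved upward in part, where 2.66% of all loci rose and 3.76% fell. Of 19 genes of bile acid synthesis and FGF19 signalling 8 rose and 1 fell, and 4 rose in the fit of the 4 libraries alone and 5 without WT DMSO 2. SLC27A2, which activates bile acids and fatty acids, was at 24.2 and 25.2 CPM with DMSO and 44.1 and 45.2 CPM with PB (log2 0.84). KLB, the co-receptor for FGF19, rose from 14 and 14.2 CPM to 22.1 and 22.6 CPM (log2 0.65). Of 27 genes of the urea cycle and amino acid breakdown 12 rose and 1 fell, and 6 rose in the fit of the 4 libraries alone. PRODH2, which oxidises hydroxyproline, rose most, from 29.8 and 31.7 CPM to 60.7 and 66.2 CPM (log2 1.03, SE 0.0655), and ARG1, the arginase of the urea cycle, went from 41.3 and 39.4 CPM to 61.4 and 52.8 CPM (log2 0.49). GLS2, the liver glutaminase, rose by 0.46 and CTH, which makes cysteine, by 0.49.

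Thyroid and retinoid enzymes included DIO1, the liver deiodinase, at 26.8 and 29 CPM with DMSO and 38.7 and 41.2 CPM with PB (log2 0.51), and RDH16, a retinol dehydrogenase, which rose by 0.41. Of 24 genes of steroid, thyroid and retinoid metabolism 7 rose and 2 fell, and in the fit of the 4 libraries alone 4 rose and none fell. Neither fall was called without WT PB 2 or without WT DMSO 1. Of 14 targets of the stress factor ATF4, 5 rose and 1 fell, against 2.66% and 3.76% of all loci. ASNS, the asparagine synthetase, rose from 12.2 and 13.3 CPM to 20.6 and 18.6 CPM (log2 0.60) and PHGDH, the first enzyme of serine synthesis, from 40.6 and 45.1 CPM to 58.8 and 61.6 CPM (log2 0.49). These 2 targets were called in the fit of the 4 libraries alone. SHMT2, which turns serine into glycine, was the member that fell (log2 -0.17, adjusted p = 0.224 in that fit), and its call was also lost without WT PB 1 (0.166) or WT DMSO 2 (0.0896). No ER chaperone rose among 15 tested, and 3 fell, none of which was called in the fit of the 4 libraries alone.

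Cholesterol, fatty acid and glucose genes moved little. Of 25 genes of cholesterol synthesis and uptake 5 rose and none fell, against 2.66% and 3.76% of all loci. In the fit of the 4 libraries alone 1 of the 25 rose. Without WT DMSO 1, 3 of the list rose. SCD, the stearoyl-CoA desaturase, went from 3222 and 3134 CPM to 2635 and 2538 CPM (log2 -0.30), and GPAM, the first enzyme of triglyceride synthesis, fell by 0.29. Of 28 genes of fatty acid synthesis and storage 2 rose and 5 fell, and in the fit of the 4 libraries alone none rose and 2 fell. Without WT DMSO 2, 3 fell, and without WT PB 1, 1 rose. For glucose output, G6PC, which releases glucose, was at 77.4 and 77.8 CPM with DMSO and 62.7 and 63 CPM with PB (log2 -0.30, SE 0.0464, adjusted p = 0.000338). PCK1, the cytosolic enzyme that starts gluconeogenesis, was at 49.3 and 46.7 CPM and 44.2 and 42.7 CPM (log2 -0.14, adjusted p = 0.27), not a call, and its mitochondrial form PCK2 rose by 0.31. Over the 20 genes of gluconeogenesis and glycogen 3 rose and 5 fell, 2 in each direction in the fit of the 4 libraries alone. PPP1R3C, a glycogen-targeting subunit, fell by 0.43.

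**Figure D3:**
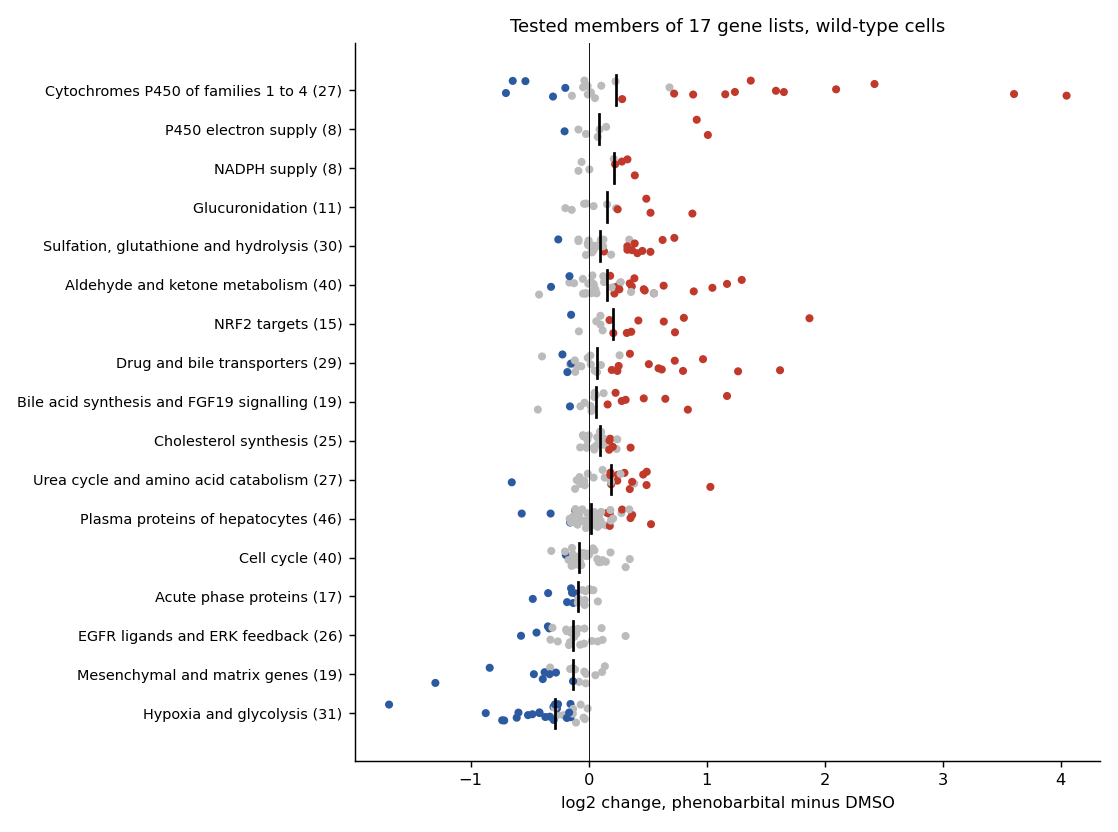
Log2 change with phenobarbital (x axis) of each tested member of 17 gene lists (y axis, number of members in brackets), red for called higher, blue for called lower and grey for not called, with the list's median as a black bar. P450 genes reach 4.05 and spread to both sides, and the 31 hypoxia and glycolysis genes all lie below 0.

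Genes of glycolysis and targets of HIF, the hypoxia-inducible factor, were lower with PB. Of 31 tested members 21 fell and none rose, against 3.76% of all loci lower. That share is not matched for level. The 18 glycolysis genes summed to 10031 and 10070 CPM with DMSO. Of loci at 500 CPM or more, 37.4% were called in either direction. All 31 estimates lay below 0, and their median was -0.286 against -0.005 over all loci. In the fit of the 4 libraries alone 11 fell. Leaving out 1 library at a time gave 17 to 22.

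NDUFA4L2, a mitochondrial HIF target, was at 2.9 and 2.73 CPM with DMSO and 0.285 and 0.839 CPM with PB (log2 -1.69, SE 0.201, adjusted p = 1.99e-05). This was the lowest log2 value of all 1014 loci called, from a low level. CA9, a carbonic anhydrase used as a hypoxia marker, was at 159.6 and 158 CPM with DMSO and 83.8 and 89.1 CPM with PB (log2 -0.87, SE 0.0458, adjusted p = 3.13e-10). EGLN3, a prolyl hydroxylase that marks HIF for breakdown, was at 61 and 59.6 CPM with DMSO and 37.9 and 34.4 CPM with PB (log2 -0.73). The groups did not overlap for either gene. PFKFB4, which sets the level of an activator of glycolysis, went from 6.47 and 6.65 CPM to 3.75 and 3.84 CPM (log2 -0.72). The median over 18 genes of glycolysis was -0.2, with 11 called, against -0.37 over 13 HIF targets, with 10 called. All 4 of these named calls held under every alternative setting.

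The promoter of CA9 is shown for the core of the hypoxia response element, ACGTG on either strand, in capitals 18 to 14 bases before the start.
CA9, GRCh38.p14 chr9:35673678-35673927, plus strand: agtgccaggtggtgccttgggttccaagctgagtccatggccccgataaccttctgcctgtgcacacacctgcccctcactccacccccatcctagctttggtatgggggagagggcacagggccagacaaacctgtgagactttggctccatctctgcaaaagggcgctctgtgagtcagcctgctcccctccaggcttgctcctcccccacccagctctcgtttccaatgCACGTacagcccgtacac
That core stood in 21.4% of all RefSeq promoters, in 26.2% of those of tested loci and in 23.8% of those of loci called lower. It stood in 10 of the 18 promoters that were matched for the called members of this list (55.6%). The list was chosen for HIF targets and glycolysis genes, so this share describes the list. A part of HIF in the falls was not tested.

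**Figure D4:**
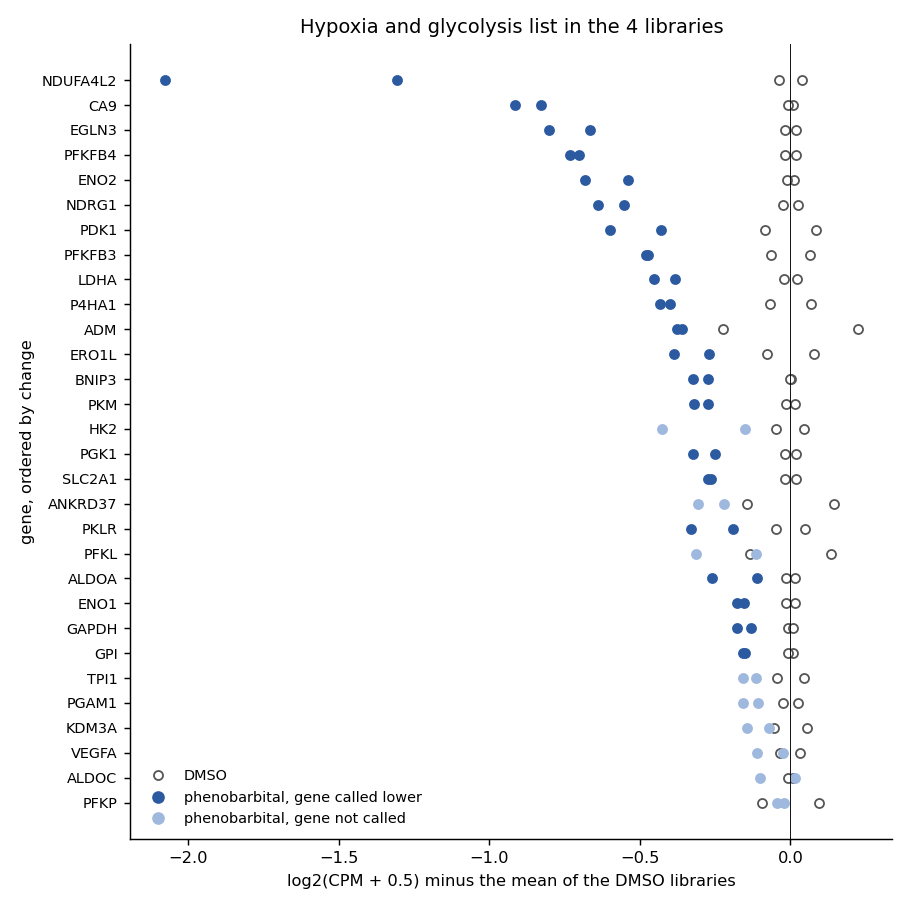
Level of hypoxia and glycolysis genes in each wild-type library, as log2(CPM + 0.5) minus the mean of the DMSO libraries (x axis), open for DMSO and filled for phenobarbital, dark blue where the gene was called lower. The filled points lie furthest left for NDUFA4L2 at the top and closest to 0 for the genes at the bottom.

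Other falls were in secreted and growth-related genes. IGFBP1, an insulin-repressed binding protein of IGF, was at 14.5 and 15.8 CPM with DMSO and 6.7 and 6 CPM with PB (log2 -1.19, SE 0.0864, adjusted p = 3.2e-08). IGFBP3, the main IGF carrier in blood, was at 33.8 and 32.6 CPM and 19.3 and 17.3 CPM (log2 -0.84, SE 0.0599). INHBE, which encodes a hepatokine of the activin family, fell by 0.63. These were the 3 called of 16 genes listed for the insulin and IGF axis, against 3.76% of all loci called lower. The list counts INHBE, of the activin family, among its ligands, and 2 of its 7 binding proteins were called. None of the receptors and substrates of this axis was called.

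The 4 tested targets of YAP, the effector of the Hippo pathway, all fell. ANKRD1 was at 87.5 and 88.9 CPM with DMSO and 55.4 and 54.9 CPM with PB (log2 -0.67, SE 0.0416). CTGF was at 127 and 128 CPM and 83.8 and 84.5 CPM (log2 -0.60, SE 0.0443), and CYR61 at 44.9 and 47.7 CPM and 33.2 and 33.6 CPM (log2 -0.47, SE 0.0474). AXL, given above among the neighbours of CYP2B6, is the fourth. In each gene the duplicates were close and the groups apart, and the calls held in every alternative setting. Wnt targets, also described with phenobarbital in rodents, gave 1 fall and no rise among 9, against 3.76% and 2.66% of all loci.

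Mesenchymal and matrix genes fell in 8 of 19 cases and rose in none, against 3.76% and 2.66% of all loci. In the fit of the 4 libraries alone 5 fell. POSTN, a matrix protein of stroma, was at 20.3 and 16.9 CPM with DMSO and 7.14 and 7.32 CPM with PB (log2 -1.30, SE 0.0938, adjusted p = 3.04e-08). THBS1, the thrombospondin, fell by 0.46 and TGFBI by 0.39. Fibronectin and the collagen chains COL1A1, COL3A1, COL4A1 and COL6A1 were not called. The summed level of the list, given above, was lower in both PB libraries than in both DMSO libraries by little, and its part in these falls was not tested.

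The EGF receptor is known to be antagonised by phenobarbital. Genes for its family, its ligands and the targets of ERK fell in 5 of 26 cases and rose in none. Of all loci 3.76% fell and 2.66% rose. The median of the 26 was -0.137. PHLDA1, an immediate target of this signalling, was at 31.7 and 29.5 CPM with DMSO and 20.8 and 20 CPM with PB (log2 -0.57, SE 0.0693). DUSP6, the phosphatase that feeds back on ERK, was at 11.5 and 10 CPM and 7.58 and 7.95 CPM (log2 -0.44, adjusted p = 0.00372). Its call was lost in the fit of the 4 libraries alone (adjusted p = 0.152) and without WT DMSO 1 (0.051), when 3 of the list fell. EGR1 fell by 0.35 and was not called in the fit of the 4 libraries alone (adjusted p = 0.106). In that fit 1 member, PHLDA1, was called. Of 40 cell cycle genes none rose and 1 fell, against 2.66% and 3.76% of all loci. None fell in the fit of the 4 libraries alone, without WT PB 2 or without WT DMSO 1. Without WT PB 1, 3 fell, and without WT DMSO 2, 2 fell and 1 rose. MKI67, the proliferation marker, was at 50 and 46.5 CPM with DMSO and 44.1 and 44.6 CPM with PB (log2 -0.12, adjusted p = 0.184). CCND1, the cyclin of G1, was at 82.2 and 80.3 CPM and 74.7 and 74.2 CPM (log2 -0.12, adjusted p = 0.152).

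Plasma proteins split. AHSG, the fetuin-A, went from 439 and 449 CPM to 353 and 356 CPM (log2 -0.32, SE 0.0398), while its neighbour in the same family, FETUB, rose from 13.6 and 12.6 CPM to 18.9 and 19.3 CPM (log2 0.53, SE 0.0797). SERPINC1, the antithrombin, rose by 0.37. Of 46 plasma protein genes 7 rose and 4 fell, against 2.66% and 3.76% of all loci. In the fit of the 4 libraries alone 2 of the 46 rose and 1 fell. Without WT PB 1, 11 rose and 5 fell, and without WT PB 2 or WT DMSO 1, 2 fell. Of 17 acute phase genes 7 fell and none rose, against 3.76% and 2.66% of all loci. None of the 17 was called in the fit of the 4 libraries alone. CRP was at 19.7 and 18.2 CPM with DMSO and 14.9 and 14.7 CPM with PB (log2 -0.34, adjusted p = 3.74e-05 and 0.159 in that fit).

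Other loci with large changes follow. ANO1, a chloride channel on the list of biliary markers, was at 2.32 and 2.47 CPM with DMSO and 6.55 and 7.77 CPM with PB (log2 1.40). ACOT12, an acetyl-CoA hydrolase of liver, rose by 1.06 and IL17RE, a cytokine receptor chain, by 1.10. H19, an imprinted fetal liver RNA, went from 27.5 and 31.6 CPM to 15.9 and 16.8 CPM (log2 -0.83, SE 0.0747). ALPP, the placental alkaline phosphatase, fell by 0.81, DNER, a Notch ligand, by 0.85, TAC3, a tachykinin, by 0.76 and STAC2 by 0.75. KRT6A, a keratin on the biliary list, went from 16.7 and 15.2 CPM to 7.91 and 8.39 CPM (log2 -0.92, SE 0.0612).

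In hCAR-KO cells, NR1I3, the targeted gene, was at 11 and 10.6 CPM with DMSO and 16.2 and 15.6 CPM with PB, against 11.5 and 12 and 14.8 and 15.5 CPM in WT cells. Read counts over the whole locus cannot show whether the transcript was edited. The same treatment in hCAR-KO cells, whose libraries are all different ones, gave 1099 called loci (6.96%), 611 higher (3.87%) and 488 lower (3.09%). Scaling every library to its total turned this split to 480 higher and 707 lower, and leaving out 1 KO library gave 523 to 671 calls. Of the 420 loci that rose in WT cells 234 also rose there, 55.7% of the WT rises and 38.3% of the KO rises, and of the 594 that fell 234 also fell, 39.4% and 48%. Opposite calls were made at 1 locus that rose in WT cells and at 9 that fell. Among the 26 loci that rose at least 2-fold in WT cells 25 had a KO estimate above 0 and 21 were called higher in KO cells. The KO estimate was above 0 at 91.7% of the WT rises, against 50.2% of all loci. CYP2B6 was at 10.2 and 8.95 CPM in KO cells with DMSO and 229.9 and 226 CPM with PB (log2 4.50). CYP3A4 was at 1079.9 and 1101 CPM and 10414 and 10929 CPM (log2 3.29). So both genes rose in cells labelled as lacking CAR, from a lower starting level for CYP2B6 and a higher one for CYP3A4.

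The difference between the genotypes' responses was itself tested, and 159 loci were called (1.01%), 126 where the KO response was the higher (0.798%) and 33 where it was the lower (0.209%). Leaving out 1 KO library gave 66 to 112. Of the WT rises 22 were larger and 12 smaller in KO cells, and of the WT falls 54 were weaker or turned upward and 2 were stronger. These loci were picked by their WT change, and the difference reuses the same WT libraries. That choice alone favours KO responses nearer to 0, so these counts are a description. CA9 fell by 0.87 in WT and by 0.39 in KO cells, and the difference was called (adjusted p = 0.000505). The hypoxia and glycolysis list had 15 falls and no rise in KO cells, where 3.09% of all loci fell and 3.87% rose. The 4 YAP targets fell there as well. Acute phase genes, 7 of which fell in WT cells, gave 7 rises and no fall in KO cells. Rises there were not particular to them, as 22 of 46 plasma protein genes rose in KO cells and none fell. CRP was at 1118 and 1094 CPM in KO cells with DMSO and 1225 and 1231 CPM with PB (log2 0.15). For CRP the difference was called (adjusted p = 0.000236).

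**Figure D5:**
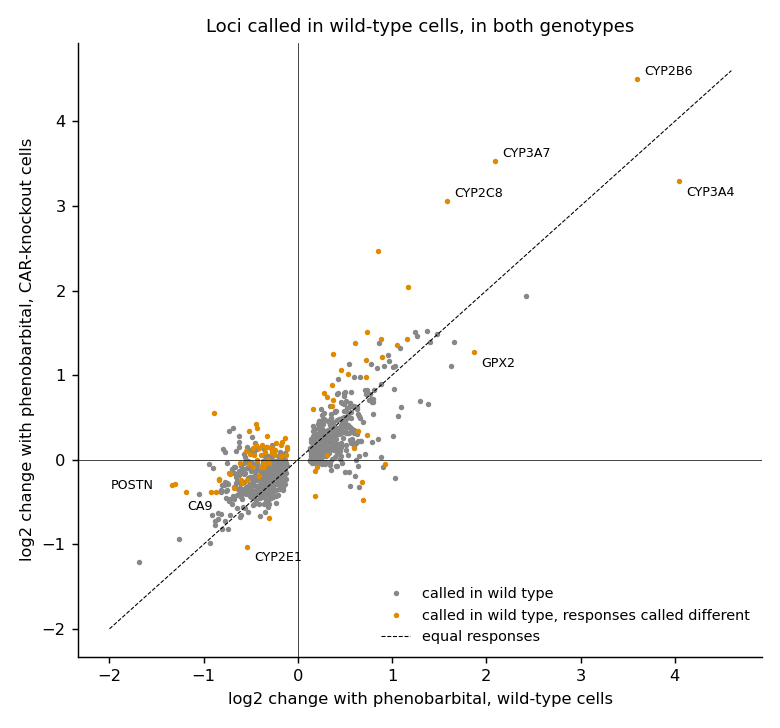
Log2 change with phenobarbital in hCAR-KO cells (y axis) against that in WT cells (x axis) for the 1014 loci called in WT cells, orange where the difference of the responses was called, with a dashed line of equal responses. CYP2B6, CYP3A7 and CYP2C8 lie above the line, CYP3A4 and GPX2 below it, and many WT falls lie nearer to 0 in KO cells. Choosing loci by their WT call favours such a shift.

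Phenobarbital was also compared directly with CITCO in WT cells, which gave 992 called loci (6.28%), 419 higher (2.65%) and 573 lower (3.63%) with PB. Scaling every library to its total turned this split to 250 higher and 947 lower, and leaving out 1 library gave 377 to 1215 calls. This comparison shares the WT PB libraries with the one against DMSO. Doses and times are not given for either drug, so the drug and its dose or time cannot be told apart. CYP2B6 was at 442 and 447 CPM with PB and 435 and 424 CPM with CITCO, a difference of 0.05 on the log2 scale (95% interval -0.07 to 0.17, adjusted p = 0.698). For CYP3A4 the values were 4029.7 and 3826 CPM with PB and 818 and 807 CPM with CITCO, a difference of 2.27 (adjusted p = 3.79e-18). AKR1B10 differed by 0.01 (95% interval -0.06 to 0.08) and AKR1C2 by 0.04 (95% interval -0.03 to 0.11). AKR1D1 was at 13.5 and 12.1 CPM with CITCO and differed by 1.15 (adjusted p = 6.03e-08). CA9 was at 129.9 and 125 CPM with CITCO and was lower with PB (log2 -0.56, adjusted p = 6.43e-07), and all 4 YAP targets were lower with PB than with CITCO. Cell cycle genes, of which 1 of 40 was called against DMSO, were lower with PB than with CITCO in 24 cases. MKI67 was at 60.6 and 61.8 CPM with CITCO (log2 -0.46, adjusted p = 1.38e-05).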

How the data were processed

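RNA from HepaRG cells was isolated with the miRNeasy Mini Kit and sequenced as standard Illumina libraries, per the labels' protocols. The submitters' processing notes name edgeR 2.12, Cuffdiff 2.1.1, Cufflinks 2.1.1, Bowtie 1.0.0 and TopHat2 2.0.10, and both GRCh38 and GRCh37, with no role or order, and strand is not given in the sources used here. The authors deposited a table of normalized signal per locus, named CPM in its file name, for 15822 loci with 1 symbol each, and a locus can merge genes. Column totals were not 1000000, so the values were treated as a signal on the authors' own scale, a different unit from the CPM planned for. In all 12 libraries they were whole multiples of what 1 read is worth within 0.001 reads, so reads were recovered. By choice, count tests were run on the reads of the WT libraries only.

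Values were tested as log2(CPM + 0.5) with limma 3.58.1 in R 4.3.3. The model had 6 group means over 12 libraries (6 residual degrees of freedom) and a prior variance that followed the level. Benjamini-Hochberg adjustment ran over 15792 loci that reached 1 CPM in 2 or more libraries, and a locus was called at an adjusted p under 0.05. SE is that of the log2 change, and a fold change is the ratio of mean CPM. On this log2 scale the changes of low loci are understated. The step was tested on simulated data, where it called 200 of 200 loci changed 2-fold and 12 unchanged loci. The changed loci had a mean of at least 5 CPM, and libraries were simulated independently with a single dispersion. Changes under 2-fold, as most calls here are, were not simulated. Duplicates differed by more than sampling noise (chi-square per degree of freedom 8.3 with DMSO and 10.4 with PB), so each library counted as 1 sample. The labels number replicates alike across groups. Deviations of same-numbered libraries correlated at -0.175 to 0.433 between groups, the highest being WT DMSO with WT PB, and at 0.34 for KO DMSO with KO PB. As not every pair of groups exceeded 0.1, the numbers were not taken to pair libraries, and the fit with a replicate block is an alternative. That block gives all 6 groups the same replicate shift, so a pairing of WT DMSO with WT PB alone was not modelled.

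Named genes were the 15 loci per direction with the largest change among those called, with a mean of at least 5 CPM in a group and no overlap, a panel of drug metabolism genes, and up to 4 called members per direction of each gene list. Genes beside P450 clusters and keratins in the closing section were named by position or family. The loci, lists and tests were chosen with earlier results of these data known. Alternatives were other pseudocounts (0.1 and 2), filters, scaling, prior variance, samples in the fit, a replicate block, leaving out 1 library, edgeR 4.0.16 and DESeq2 1.42.0 on whole reads. The authors' comparison tables were not used here. Results for some genes are not reported here.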

Additional observations from a re-analysis of the deposited data

Results flagged for a closer look

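The named genes below were singled out because the response to phenobarbital differed between WT and hCAR-KO cells when the difference itself was tested (interaction term in limma, adjusted p under 0.05). Values below are the KO log2 change minus the WT log2 change. All 4 groups in this test are pairs of libraries, and 25 loci in all were called with a constant prior variance, against 159. Many of the genes were named for their WT change in the same WT libraries, which favours KO estimates nearer to 0.

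P450 genes led. CYP2C8 rose more in KO cells by 1.47 (1.59 in WT, 3.06 in KO), CYP3A7 by 1.44 and CYP2B6 by 0.90. Other genes with an estimate above 0 in both genotypes and a larger one in KO cells were AKR1D1 by 0.87, ABCB1 by 0.78, THRSP by 0.65, ALAS1 by 0.61, CREB3L3 by 0.51, FETUB by 0.48, CYP3A5 by 0.46, AKR1C2 by 0.32, AKR1B10 by 0.31, CYP2C18 by 0.27 and EPHX1 by 0.25.

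Genes with an estimate below 0 in both genotypes, nearer to 0 in KO cells, differed as follows: POSTN by 1.01, IGFBP1 by 0.81, H19 by 0.59, EGLN3 by 0.58, PFKFB4 by 0.55, KRT6A by 0.54, CA9 by 0.49, AXL by 0.36 and BIRC3 by 0.31. Genes with an estimate below 0 in WT and above 0 in KO cells were ITIH3 by 0.61, PCK1 by 0.57, CRP by 0.50, AHSG by 0.48, ANGPTL4 by 0.45, CP by 0.40, MKI67 by 0.36, ICAM1 by 0.35, ABCC6 by 0.35, PLIN2 by 0.29, GC by 0.23 and FGB by 0.23. The last set holds liver secretory genes such as AHSG, GC, FGB and CRP. Whether the KO estimates of these genes differ from 0 is not part of this test. Of the last set, PCK1 and MKI67 were not called in WT cells against DMSO. Among the others, only AHSG kept its WT call in the fit of the 4 libraries alone.

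The difference was negative for the others: G6PC (-0.39), SPP1 (-0.45), CYP2E1 (-0.49), GPX2 (-0.60), CYP3A4 (-0.76). CYP3A4, GPX2 and SPP1, the osteopontin gene, thus had smaller rises in KO cells, and CYP2E1 and G6PC had larger falls.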

How the results depend on the processing

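No called named gene changed direction under any alternative. The uncalled CYP1A2, NQO1 and ALB had estimates on the other side of 0 when 1 library was left out. Scaling to library totals turned the split of the KO comparison from more loci higher to more lower (480 and 707). For WT phenobarbital against DMSO, 1014 calls became 537 with a constant prior variance, 242 in a fit of the 4 libraries alone, 554 with edgeR (277 in each direction) and 669 with DESeq2 (338 higher, 331 lower), of which 501, 242, 547 and 655 were among the 1014. Leaving out 1 library gave 811 to 1102. For KO phenobarbital against DMSO, 1099 calls became 612 with a constant prior variance and 1501 in a fit of the libraries compared, and leaving out 1 library gave 523 to 671. For the difference between genotypes, 159 calls became 25 with a constant prior variance and 84 in a fit of the libraries compared, and leaving out 1 library gave 66 to 213. For phenobarbital against CITCO, 992 calls became 434 with a constant prior variance, 437 in a fit of the libraries compared, 500 with edgeR and 632 with DESeq2, and leaving out 1 library gave 377 to 1215. The cause was not tested. With the replicate block the counts were 1003, 1105, 153 and 951 in the same order. Whole reads were used for the WT libraries only, so edgeR and DESeq2 were not run for the comparisons with KO cells. Of 177 named genes called, 80 lost the call in the fit of the 4 libraries alone and 129 kept it without each library in turn. Loci under 5 CPM had a median SE of 0.17, so small changes there were not detectable.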

Other observations

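Keratins were read as a family after their values were seen. Of 14 tested, 8 fell and none rose with phenobarbital in WT cells (limma), against 3.76% and 2.66% of all loci. Since the family was chosen on these values, the count is a description. KRT6B, KRT16 and KRT6C, among the 8, were at 0.335 to 2.52 CPM. Alternative settings were run for KRT6A only among the keratins. KRT5 was at 35.2 and 36.7 CPM with DMSO and 23.8 and 22.2 CPM with PB (log2 -0.64). KRT8, a keratin of simple epithelia, was at 1149 and 1197 CPM with DMSO and 909.7 and 1013 CPM with PB (log2 -0.29), with its partner KRT18 at -0.27.

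By annotated biotype, 3% of protein-coding loci rose and 4.31% fell, against 1.36% and 0.847% of long non-coding RNA loci. Non-coding loci had lower levels, with a median of 3.37 CPM against 22.4 CPM with DMSO.

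Of the loci not called, 11 had an absolute log2 change over 1, all 11 higher with PB. Of these, 8 carried clone-based symbols and varied together between duplicates. Their summed level was 6.92 CPM in WT DMSO 1 and 115 CPM in WT DMSO 2, and 152 and 274 CPM in the PB libraries. In hCAR-KO cells with DMSO the sum was 26.2 CPM in replicate 1 and 561 CPM in replicate 2.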
